A study of Mus musculus with 8 samples.

Results

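The 50 genes described here encode the machinery of mitosis: the kinases and cyclins that start it, the spindle checkpoint, the chromosomal passenger complex, the kinetochore, the spindle motors, the cytokinesis apparatus, the proteins that shape chromosomes, and the factors that release cells into anaphase. They were picked by gene symbol, with no threshold on a measured value, and all 50 were found among the 24015 gene symbols of the deposited table. The cells were labelled cardiac fibroblasts, the connective tissue cells of the heart, from wild type C57BL/6J mice aged 8 weeks, and the study followed them through osteogenic (bone-type) differentiation in culture. RNA was sequenced before the medium was applied (day 0) and after 7, 14 and 21 days in differentiation medium, with 2 libraries for each day and 8 in all. The labels give neither the components of the medium nor the number of mice, nor whether the 2 libraries of a day were grown as separate cultures, so the p-values reflect only how far these libraries differ, which may be technical. Untreated cells of the same culture age were not analysed here, so the medium and time in culture cannot be told apart.

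A dividing cell builds up mitotic proteins late in its cycle and destroys many of them as it leaves mitosis. Transcription of most of these genes is held off in resting cells by the DREAM complex and switched on in cycling cells by B-Myb with MuvB and by Foxm1, which act through promoter elements called the CCAAT box (bound by NF-Y) and the cell cycle genes homology region, or CHR. Adult fibroblasts are largely quiescent in the heart and proliferate when they are put in culture, so the RNA of this gene set is commonly read as a measure of how many cells are cycling. In a bulk library fewer cycling cells and less RNA per cycling cell cannot be told apart.

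Between 13399313 and 21883498 reads per library were assigned to genes, of which 23253 and 38597 fell on the 50 members at day 0 and 4814 to 6032 in each library from the medium. Values are given below as normalized read counts, which are reads divided by 1 size factor per library, and every error on such a level is the SD over 2 libraries. All 10 fibroblast markers examined were above 0 in every library, with a summed level of 712490 and 719123 at day 0 and between 322572 and 539298 later. Markers of other cell types also moved over the same days. The summed level of 10 macrophage markers, all above 0 in every library and led by Lyz2, was 991 and 1077 at day 0, then 8650 and 10749 (day 7), 18654 and 34484 (day 14) and 17598 and 18475 (day 21). The 8 cardiomyocyte markers summed to 1137 and 1213 at day 0 and to between 5868 and 28811 in medium. Nearly all of this came from Tnnt2, with a mean of 11597 over all libraries. Only 1 of the 8 was above 0 in every library, and Myh6, the adult myosin that defines these cells, was at 0 throughout. The 6 adipocyte markers, led by Lpl and with 3 above 0 in every library, went from 930 and 1212 to between 7347 and 12116. The 8 endothelial markers summed to 670 and 690 at day 0 and to between 295 and 590 in medium. The 6 smooth muscle and pericyte markers summed to 842 and 876, then to between 798 and 2784. The 8 osteoblast markers, led by Col1a1, summed to 245549 and 260354 at day 0 and to between 31380 and 78623 in medium, with 5 above 0 in every library and Sp7 and Ibsp at 0 in all. Col1a1 is also among the 10 fibroblast markers. Its mean over all libraries was 98754, so this sum mostly follows Col1a1 and does not describe the other osteoblast markers. The part of these cell type markers in the results below was not tested.

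After 7 days in medium all but 1 of the mitotic genes were lower than before, most of them by an order of magnitude or more. The 50 members together had a summed normalized count of 30566 ± 232 (SD, n = 2) at day 0 and 5391 ± 19.6 at day 7, which is 17.6% of the starting level, and the median member went from 416 to 38.1. In limma's moderated test on log2(value + 1), with Benjamini-Hochberg adjustment over 13527 tested genes, 49 of the 50 members fell and 1, Pttg1, rose. The 49 include Cdc25c, Bub1, Ttk and Kif15, which passed the filter on low values only through day 0 and so had to differ. Among all tested genes 27.9% were called lower and 27.5% higher at day 7. The median member differed by -3.58 on the log2 scale, against -0.01 over all tested genes, and 26 members were among the 100 largest falls of the 13527. In each of the 49 genes that fell, both day 7 libraries lay below both day 0 libraries. That separation was not counted over all tested genes and adds no support beyond the calls. All 50 calls were made without each library in turn.

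Levels stayed low on the later days. At day 14 the summed level was 5579 ± 246 and at day 21 it was 4973 ± 238, or 18.3% and 16.3% of day 0. Against day 0, day 21 was again lower for 49 members and higher for Pttg1, with a median log2 difference of -3.77 against 0.00 over all tested genes, of which 29.5% were lower and 29.8% higher. The day 7 and day 21 comparisons use the same pair of day 0 libraries. The call for Smc4 at day 21 was lost without the first day 0 library, at a log2 difference of -0.27 and a limma adjusted p of 0.165, and without the second day 21 library, at -0.27 and 0.116. All 50 members passed the filter on low values, but Cdc25c, Bub1, Ttk and Kif15 passed only through their day 0 level, so those 4 had to differ; the other 46 also passed in medium. Transcripts of the set were scarce but not absent, since the fewest reads of any member over the 2 libraries of a medium day was 6.

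**Figure D1:**
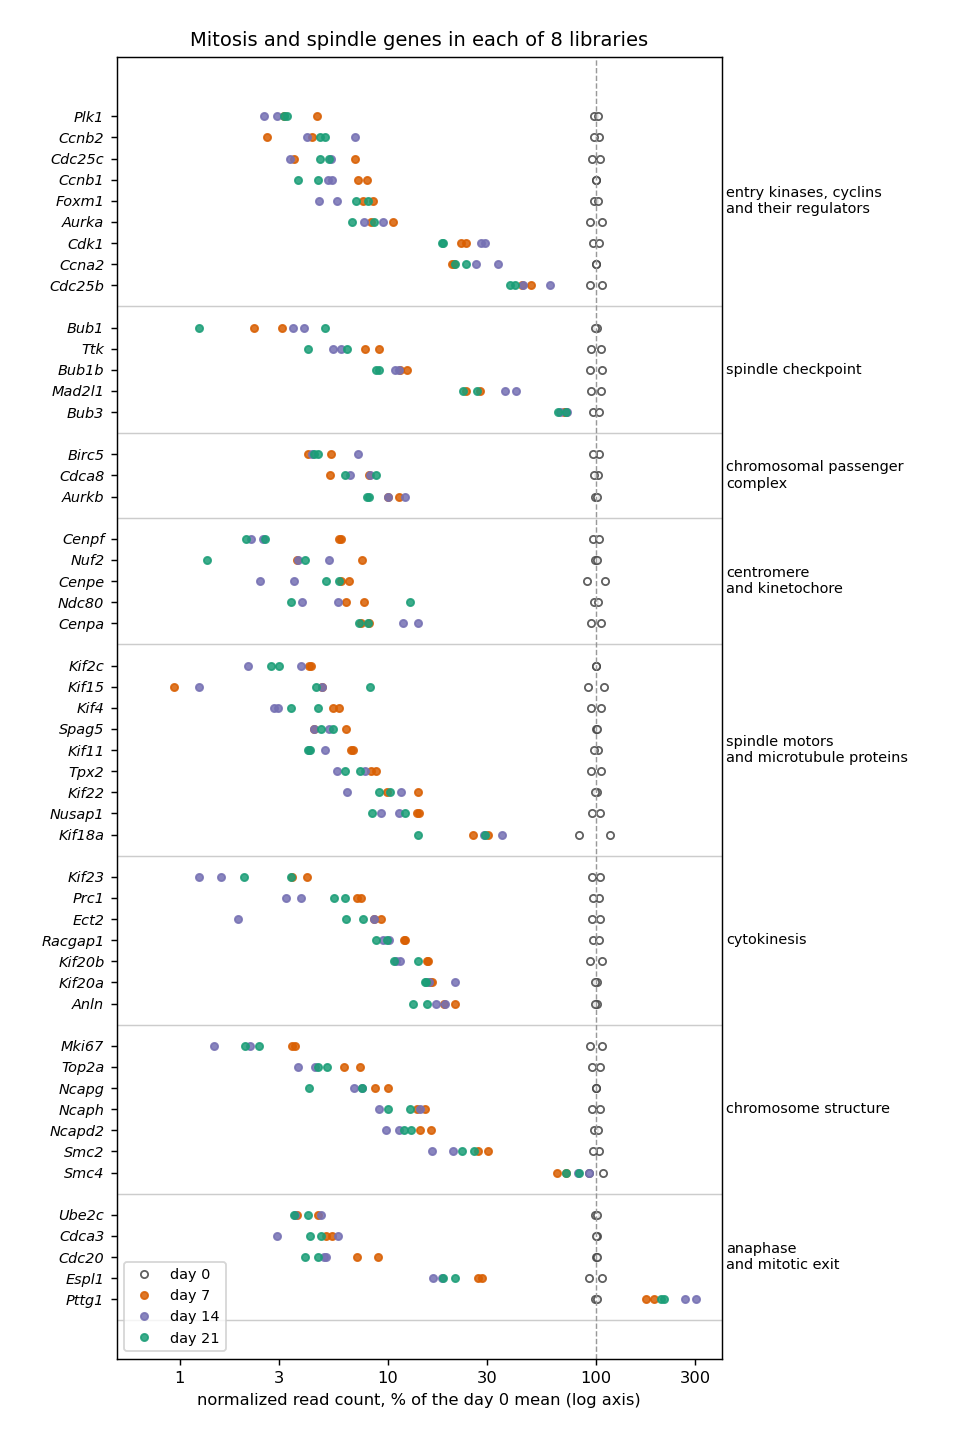
Normalized read count of each of the 50 members in each of the 8 libraries, as a percentage of that gene's day 0 mean on a log axis, grouped by role; each point is 1 library and colours mark the day. Points from the medium lie far left of the dashed 100% line for most genes, while Bub3 and Smc4 stay near it and Pttg1 lies to its right.

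The depth of the loss differed widely among members. Taking the mean of the 3 medium days as a percentage of day 0, the median member kept 7.12% of its level and the range ran from 2.52% for Mki67 to 225% for Pttg1. There were 15 members at or under 5%, 16 from 5% to 10%, 9 from 10% to 20%, 7 from 20% to 50% and 3 above 50%. These 3, Bub3, Smc4 and Pttg1, supplied 9.82% of the members' summed level at day 0 and 50.4% at day 14. Per kilobase of transcript, the most abundant members at day 0 were Cdc20 at 582, Bub3 at 528 and Plk1 at 473 normalized counts per kb, and the most abundant in medium were Bub3 at 368, Pttg1 at 348 and Smc4 at 169. Across the 50 genes, the day 7 difference had a Pearson correlation of 0.05 with log2 transcript length and of 0.01 with the log2 day 0 level per kb; these are descriptions over genes of the same libraries, which are not independent replicates.

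The promoters of the members were read from RefSeq's annotated start sites on GRCm38.p6, in windows of 250 bases before to 50 bases after the start. Windows were found for 43 of the 50 members, 46 windows in all; Aurkb, Ccna2, Cdc25c, Foxm1, Kif20a, Smc4 and Tpx2 had none. The letters searched, on both strands, were CCAAT for the NF-Y box. For a CHR-type element they were TTTGAA and its variant spelling TTTAAA. For an E2F-type element they were TTCCCGC, as well as TTGGCGC and also the sequence TTCGCGC. The sequences printed here are the 150 bases from 100 before to 50 after the start. They come from 4 members that fell (Plk1, Ccnb2, Cdc20 and Cdca8), from Bub3, which fell little, and from Pttg1, which rose. Plk1, Ccnb2, Cdc20 and Cdca8 kept 3.27%, 4.61%, 5.78% and 7.19% of their level, beside 7.12% for the median member. The printed genes were picked by name, not by a rule, and do not represent the set. Each sequence runs 5′ to 3′ along the gene, and capitals mark every match to the 3 motifs.
Plk1, chr7:122159335-122159484, plus strand: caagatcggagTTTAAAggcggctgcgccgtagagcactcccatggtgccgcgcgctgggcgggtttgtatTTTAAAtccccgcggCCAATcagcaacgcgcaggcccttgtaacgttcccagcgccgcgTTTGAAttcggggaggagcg
Ccnb2, chr9:70421505-70421654, minus strand: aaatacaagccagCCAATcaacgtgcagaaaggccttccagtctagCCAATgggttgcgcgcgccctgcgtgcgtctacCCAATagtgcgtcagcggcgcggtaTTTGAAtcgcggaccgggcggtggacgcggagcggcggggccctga
Cdc20, chr4:118437294-118437443, minus strand: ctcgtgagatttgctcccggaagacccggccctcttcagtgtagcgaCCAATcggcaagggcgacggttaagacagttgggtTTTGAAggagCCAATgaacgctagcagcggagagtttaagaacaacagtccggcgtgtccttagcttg
Cdca8, chr4:124936868-124937017, minus strand: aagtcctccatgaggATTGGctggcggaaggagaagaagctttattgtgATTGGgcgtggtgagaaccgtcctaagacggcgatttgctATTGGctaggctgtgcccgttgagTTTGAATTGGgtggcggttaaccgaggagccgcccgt
Bub3, chr7:131560270-131560419, plus strand: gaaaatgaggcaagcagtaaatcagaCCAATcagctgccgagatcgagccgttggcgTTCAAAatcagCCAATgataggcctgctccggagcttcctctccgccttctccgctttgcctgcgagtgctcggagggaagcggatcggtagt
Pttg1, chr11:43425932-43426081, minus strand: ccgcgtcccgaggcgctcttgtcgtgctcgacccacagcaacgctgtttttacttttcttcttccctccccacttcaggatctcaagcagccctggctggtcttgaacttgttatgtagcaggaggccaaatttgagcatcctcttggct

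Plk1, Ccnb2, Cdc20 and Cdca8 each carried both a CCAAT box and a CHR-type match, and in Cdca8 the capital run TTTGAATTGG is a CHR-type match that overlaps a reversed CCAAT. The window of Bub3 held the same kinds of match as theirs although the gene kept 69.7% of its level. The window of Pttg1 held none, and it lies 1482 bases inside the outermost start annotated for that gene. Over all member windows, 73.9% held a CCAAT and 82.6% a CHR-type match, against 37.4% and 27.6% of all 32851 windows in the table, and 69.6% held both, against 10.7%. E2F-type letters were in 21.7% of member windows and 8.07% of all. In the narrower stretch from 100 bases before to 50 after the start the shares were 63.0% and 73.9% for CCAAT and CHR-type, against 23.4% and 12.8%. Mad2l1, Nuf2, Nusap1 and Pttg1 held no match to any of the 3, and of these Nuf2 kept 4.24% and Nusap1 11.5% of its level. Bub1, which kept 3.18%, held no CHR-type match, and Kif2c (3.36%) and Kif15 (4.10%) held no CCAAT. Both kinds were held by 29 of the 43 genes. A match is only a string of letters, and no binding was measured. Members were picked as mitotic genes, a class described above as switched through CCAAT and CHR elements. Their high shares may follow from that choice alone, and a relation to the falls was not tested.

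**Figure D2:**
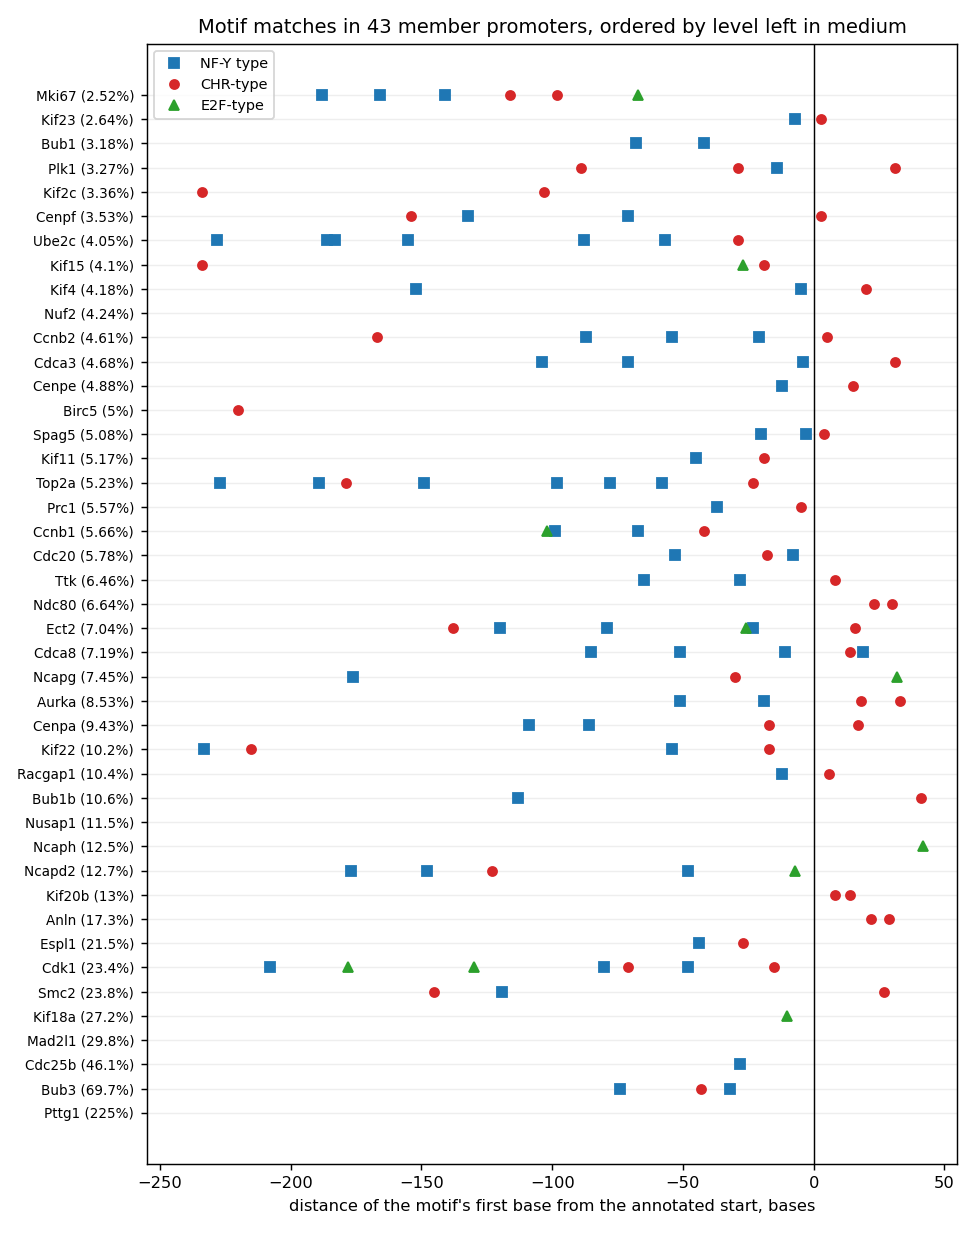
Positions of the 3 kinds of motif match in the promoter windows of the 43 members that had one, relative to the annotated start in bases (1 window per gene), with genes ordered by the level left in medium as a percentage of day 0. NF-Y type is the CCAAT box; over all member windows the median position is -71 for this type and -17.5 for CHR-type matches, and in the window of Bub3 the CHR-type match lies between 2 CCAAT boxes.

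Entry into mitosis is driven by Cdk1 with cyclins A and B, by the phosphatases that activate it and by Plk1 and Aurora A. All 9 members of this group fell by day 7. Plk1, the polo-like kinase needed for mitotic entry and spindle assembly, stood at 1020 and 1059 at day 0, then 32.8 and 47.3 (day 7), 26.4 and 30.4 (day 14) and 34.2 and 33.1 (day 21). Ccnb2, a B-type cyclin, stood at 572 and 541, then 14.6 and 24.1, 22.8 and 38.6, and 27.8 and 26.3 in the same order. Foxm1, the transcription factor that switches on many of the others, stood at 902 and 948, then 70.1 and 78.5, 52.8 and 43.2, and 65.2 and 73.9. For these 3 genes every medium library lies far below both day 0 libraries, with day 7 log2 differences of -4.69 ± 0.20 (SE) for Plk1, -4.82 ± 0.28 for Ccnb2 and -3.62 ± 0.16 for Foxm1, at limma adjusted p-values of 2.24e-09, 3.36e-08 and 3.42e-09.

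Cdk1 itself, the kinase at the centre of mitotic entry, kept more of its RNA than its B-type cyclins did. It stood at 939 and 1009 at day 0, then 220 and 232 (day 7), 273 and 286 (day 14) and 179 and 178 (day 21), and so kept 23.4% of its level while Ccnb1 kept 5.66% and Ccnb2 4.61%. Ccna2, cyclin A, which also acts in S phase, kept 24.4%, with 955 and 958 at day 0 against 195 and 198 at day 7. The 2 members of the Cdc25 family, phosphatases that activate Cdk1, parted in the same way. Cdc25c went from 98.7 and 107 to 3.64 and 7.13 and kept 4.85% over the medium days, whereas Cdc25b went from 181 and 158 to 74.7 and 82.0 and kept 46.1%. Cdc25c passed the filter on low values only through day 0 and so had to differ. Stretches of at least 200 bases of the Ccnb1 transcript are at least 95% identical to 4 annotated pseudogenes, so its reads may be divided among copies. The longest of these stretches is 1294 of 2489 transcript bases. At the same limits 5 members have a pseudogene copy: Ccnb1, Mad2l1, Mki67, Ndc80 and Racgap1.

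**Figure D3:**
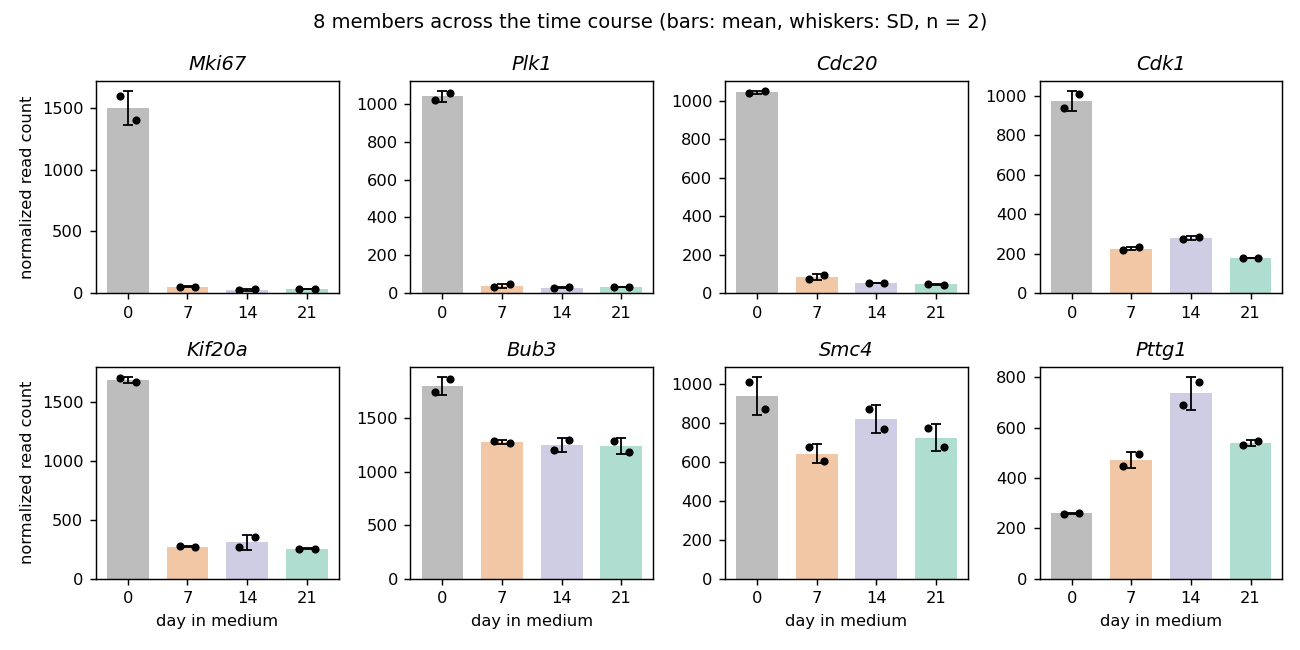
Normalized read count of 8 members at days 0, 7, 14 and 21; bars are means, whiskers are SD (n = 2) and points are single libraries. Mki67, Plk1, Cdc20, Cdk1 and Kif20a drop after day 0, Bub3 and Smc4 lose a smaller part, and Pttg1 is higher on every medium day.

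The spindle checkpoint delays anaphase until every kinetochore is attached, and its 5 members fell by very different amounts. The kinase Bub1 stood at 238 and 233 at day 0 and 7.29 and 5.35 at day 7, a log2 difference of -5.03 ± 0.46 (limma adjusted p = 1.91e-06). Bub1 and Ttk passed the filter on low values only through day 0 and so had to differ, and this p-value adds no support. Bub1b, which encodes BubR1, kept 10.6% and the kinase Ttk, also called Mps1, kept 6.46%. Mad2l1, whose product Mad2 is the diffusible inhibitor of Cdc20, stood at 321 and 358 at day 0, then 93.8 and 80.2 (day 7), 124 and 140 (day 14) and 78.0 and 91.4 (day 21). Bub3, a WD40-repeat protein that brings Bub1 and BubR1 to kinetochores, stood at 1743 and 1864 at day 0, then 1289 and 1266 (day 7), 1209 and 1301 (day 14) and 1291 and 1185 (day 21). The 6 medium libraries of Bub3 overlap one another and all lie below day 0. Its day 7 difference was -0.50 ± 0.09 on the log2 scale (adjusted p = 0.000728), against -5.03 for its partner Bub1.

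The chromosomal passenger complex corrects faulty attachments and guides cytokinesis, and the 3 of its subunits among the members fell by day 7. The kinase Aurkb (Aurora B) went from 353 and 360 at day 0 to 40.1 and 35.7 at day 7, survivin (Birc5) from a mean of 486 ± 19.8 to 22.9 ± 4.11 (SD, n = 2), and borealin (Cdca8) from 498 and 472 to 25.5 and 39.2. Their day 7 differences lay between -4.36 and -3.20 on the log2 scale, and none of the 3 was called between any pair of medium days. The scaffold subunit Incenp, which is not a member, fell by 1.57 (limma adjusted p = 2.41e-06).

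The 5 centromere and kinetochore members, which tie chromosomes to microtubules, kept between 3.53% and 9.43% of their level. Cenpa, the histone H3 variant that marks centromeres, stood at 468 and 519 at day 0, then 40.1 and 36.6 (day 7), 58.3 and 69.0 (day 14) and 39.5 and 36.0 (day 21). The large kinetochore protein Cenpf stood at 361 and 387, then 21.9 and 22.3, 8.20 and 9.35, and 9.61 and 7.78. Both day 14 libraries of Cenpa lie above day 7 and day 21, while those of Cenpf lie below day 7. The Ndc80 complex subunits Ndc80 and Nuf2 went from 142 ± 4.66 and 315 ± 3.40 to 9.92 ± 1.43 and 17.6 ± 8.55, and the kinesin Cenpe from 385 ± 54.0 to 23.9 ± 1.55 (SD, n = 2).

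All 9 spindle motor and microtubule members fell by day 7. Tpx2, which activates Aurora A on spindle microtubules, had the highest day 0 value of the group at 1353 and 1215 and stood at 112 and 106 at day 7. Kif11 (Eg5), the motor that pushes spindle poles apart, went from 335 and 320 to 21.9 and 22.3, and the microtubule depolymerase Kif2c from 426 and 428 to 18.2 and 17.8. Kif18a, which restrains chromosome oscillation, was low at the outset, at 81.2 and 57.5, and kept 27.2% with 21.0 and 17.8 at day 7. Kif15 rested on few reads in medium, with values of 4.55 and 0.892 at day 7, and its log2 difference of -4.88 had the largest standard error in this comparison among the members, 0.60. Kif15 passed the filter on low values only through day 0 and so had to differ.

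Cytokinesis splits the cell after chromosomes have parted, and its 7 members kept between 2.64% and 17.3%. Kif23, the kinesin of the centralspindlin complex, stood at 384 and 354 at day 0, then 12.8 and 15.2 (day 7), 4.56 and 5.84 (day 14) and 7.48 and 12.6 (day 21). Its centralspindlin partner Racgap1 kept more, 10.4%, with 1016 and 1080 at day 0 and 127 and 125 at day 7. Prc1, which bundles the microtubules of the midzone, stood at 1102 and 1026, then 79.2 and 75.8, 34.6 and 40.9, and 58.7 and 66.1. Anillin (Anln), a scaffold of the contractile ring, went from 1651 and 1620 to 342 and 305 at day 7 and kept 17.3%.

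Kif20a, a midzone kinesin, stood at 1705 and 1666 at day 0, then 274 and 269 (day 7), 266 and 353 (day 14) and 255 and 257 (day 21), and kept 16.6%. In the GENCODE M21 annotation 29.3% of its exonic bases overlap Cdc23 on the opposite strand, and Cdc23 had a level of 1405 ± 5.74 at day 0 and 885 ± 26.2 at day 7, or 63.0% of day 0. The strand setting of the counting was not given in the sources used here, so reads of the pair may not be separable. Smaller shares of Ube2c (22.8%), Kif4 (15.1%), Ncapg (13.4%), Cdc25c (12.7%), Ccna2 (12.5%) and Prc1 (11.1%) also overlap a neighbour on the opposite strand.

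Among genes of chromosome structure, all 7 members fell by day 7. Mki67, which coats mitotic chromosomes and is the classical marker of cycling cells, stood at 1598 and 1404 at day 0, then 53.7 and 51.7 (day 7), 21.9 and 32.7 (day 14) and 31.0 and 36.0 (day 21). Top2a, the topoisomerase that untangles sister chromatids, stood at 1615 and 1472, then 94.7 and 113, 69.2 and 57.3, and 79.0 and 71.0. The condensin complex, which compacts chromosomes, was reduced unequally. Its core ATPase Smc4 stood at 1008 and 871 at day 0, then 677 and 606 (day 7), 869 and 770 (day 14) and 775 and 674 (day 21). The other core ATPase, Smc2, stood at 511 and 480, then 150 and 135, 102 and 80.6, and 128 and 112.

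In both genes the libraries of days 0 and 7 did not overlap, and the gap was wider for Smc2. For Smc4 the lower day 0 library lay only just above the higher day 14 library. The day 7 differences were -0.55 ± 0.12 for Smc4 and -1.79 ± 0.16 for Smc2 on the log2 scale (limma adjusted p = 0.00191 and 1.27e-06). The condensin I subunits Ncapd2, Ncapg and Ncaph kept 12.7%, 7.45% and 12.5%. Smc2 and Smc4 serve both condensin I and condensin II.

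Anaphase begins when the ubiquitin ligase APC/C, activated by Cdc20 and supplied by the conjugating enzyme Ube2c, destroys securin and so frees separase to cut cohesin. Cdc20 stood at 1038 and 1047 at day 0, then 73.8 and 93.6 (day 7), 52.8 and 51.4 (day 14) and 48.1 and 41.8 (day 21), and Ube2c kept 4.05%. Separase (Espl1) went from 232 and 268 at day 0 to 67.4 and 70.4 at day 7 and kept 21.5%. Cdca3, a trigger of mitotic entry and a target of the APC/C, kept 4.68%. Securin (Pttg1) went the other way.

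Pttg1 stood at 257 and 261 at day 0, then 449 and 494 (day 7), 690 and 783 (day 14) and 531 and 547 (day 21), and every medium library lay above both day 0 libraries. It rose by 0.86 ± 0.11 on the log2 scale at day 7 (limma adjusted p = 3.52e-05), rose again by 0.64 ± 0.11 to day 14 (adjusted p = 0.000577) and fell by 0.45 to day 21 (adjusted p = 0.00962), when it was still 1.05 ± 0.11 above day 0 (adjusted p = 4.84e-06). With trends of transcript length and GC content removed from each library, the differences from day 0 were 0.78 at day 7 and 0.75 at day 21 and stayed called, but the steps between medium days were not, at 0.14 (adjusted p = 0.272) and -0.17 (adjusted p = 0.228). Without the second day 14 library the fall to day 21 was -0.36 (adjusted p = 0.0589). No overlapping gene and no near-identical copy was found for it, at the same limits as for Ccnb1.

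Between days 7 and 14 the low levels kept moving, in both directions. Of the 50 members 12 fell further, 6 rose and 32 were not called, beside 27.0% of all tested genes lower and 25.0% higher, so the members' share of falls is close to the background and their share of rises is below it. The 12 were Kif23, Cenpf, Prc1, Cenpe, Mki67, Kif4, Top2a, Cdc20, Espl1, Smc2, Foxm1 and Ncapd2, with log2 differences from -1.27 to -0.53. The largest was Kif23, at -1.27 ± 0.31 (limma adjusted p = 0.00471), followed by Cenpf at -1.24 ± 0.25 (0.00165), and the smallest adjusted p was that of Prc1, at -1.02 ± 0.16 (0.000306). Few reads lie behind the first 2 of these. Over both libraries of a day Kif23 had 31 reads at day 7 and 10 at day 14, and Cenpf had 49 and 17. The 6 that rose were Cenpa, Pttg1, Mad2l1, Ccna2, Smc4 and Cdk1, by 0.31 to 0.71. Ccna2 rose by 0.54 ± 0.14 (adjusted p = 0.00547) and Cenpa by 0.71 ± 0.18 (0.00569).

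Single libraries decided several of these calls. Without the second day 7 library 11 members were called, and Foxm1, Cdk1, Mad2l1, Kif4, Ncapd2, Smc4, Cdc20 and Espl1 lost their call at adjusted p-values of 0.0607 to 0.196. Cdk1, Smc2 and Smc4 lost theirs without the first day 7 library (0.0505 to 0.196), Smc4 also without the first day 14 library (0.106), and Cdk1 also without the second day 14 library (0.107) or either day 0 library (0.0628 and 0.0634). Ccna2, Cenpa, Cenpe, Cenpf, Kif23, Mki67, Prc1, Pttg1 and Top2a were called in all 8 leave-outs.

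Transcript length moved with this step. Over the 13421 tested genes with a known length, the log2 difference between days 14 and 7 changed by -0.38 for each doubling of length, against -0.01 between days 7 and 0. Among the 50 members the correlation of this difference with log2 length was -0.42 (Pearson) and -0.39 (Spearman), as a description of these libraries. Of the 25 longer members 9 fell and 3 rose, and of the 25 shorter ones 3 fell and 3 rose. With the length and GC trends removed, 11 members were called, 7 lower and 4 higher, and of the original 18 calls 9 were kept and 9 lost. Those lost were Foxm1, Cenpa, Cenpe, Cenpf, Kif4, Ncapd2, Mki67, Espl1 and Pttg1. The part of the length trend in the members' changes was not tested further.

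**Figure D4:**
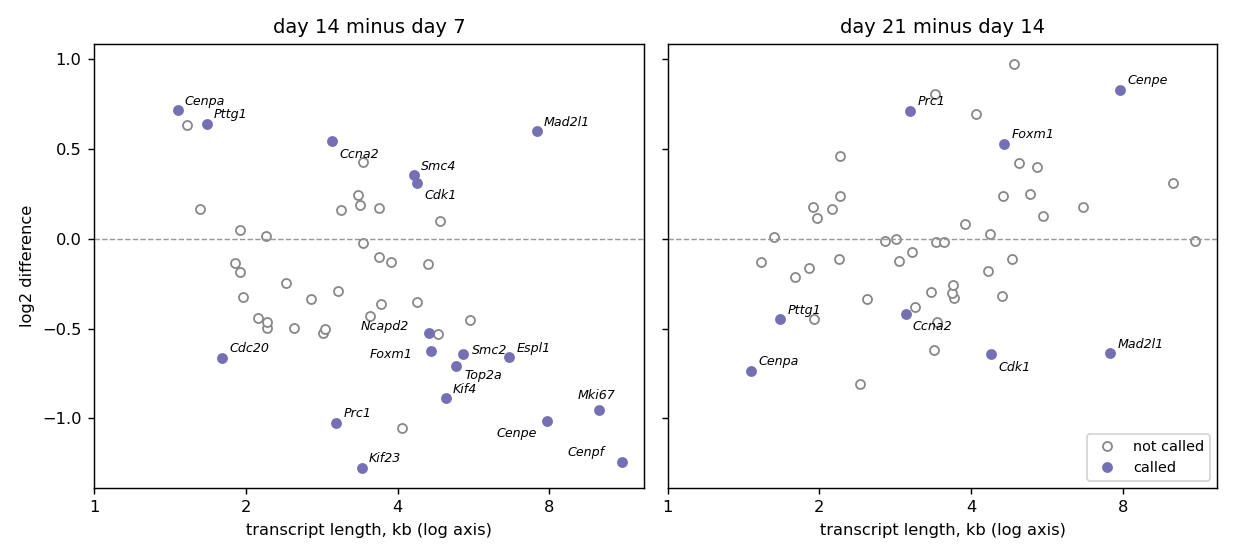
Log2 difference of each of the 50 members against transcript length in kb (log axis), for day 14 minus day 7 (left) and day 21 minus day 14 (right); filled points passed the test and are named. On the left the longest members, Cenpf, Mki67 and Cenpe, lie low and the short Cenpa and Pttg1 lie high, while Mad2l1, also long, lies high and the short Cdc20 lies low; on the right Cenpa and Pttg1 lie low.

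Between days 14 and 21 few members were called. Of the 50 members 5 fell and 3 rose, beside 14.3% of tested genes lower and 20.2% higher. The 5 were Cenpa, Cdk1, Mad2l1, Pttg1 and Ccna2, at log2 differences of -0.73 to -0.42. This comparison and the one before share the day 14 libraries, so a high or low day 14 value moves them in opposite directions, and no relation between the 2 sets of calls is drawn. The 3 that rose were Cenpe at 0.83, Prc1 at 0.71 and Foxm1 at 0.53. Cdk1 fell by 0.64 ± 0.11 on the log2 scale (limma adjusted p = 0.00189) and Prc1 rose by 0.71 ± 0.16 (adjusted p = 0.00591), and these 2 were called in all 8 leave-outs.

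Leaving out libraries moved the count between 2 and 14. Without the second day 14 library 2 members were called and Foxm1, Ccna2, Mad2l1, Cenpa, Cenpe and Pttg1 lost their call (adjusted p from 0.0542 to 0.223). Without the first day 14 library 14 were called, and without the first day 0 library 5, with Foxm1, Ccna2 and Cenpe lost (up to 0.0587). Foxm1, Ccna2, Cenpa and Cenpe lost their call without the second day 21 library (0.0541 to 0.168), Mad2l1 and Cenpe without the first day 21 library (0.0562 to 0.0907), Foxm1 and Ccna2 without the second day 0 library (0.0559 and 0.0587), and Ccna2 without either day 7 library (0.0546 and 0.0549). The all-gene slope on length was 0.25 per doubling in this step, and with length and GC trends removed Foxm1, Cenpa, Cenpe and Pttg1 lost their call.

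Set directly against day 7, day 21 was lower for 4 members, higher for none and not called for 46 by limma, with 13 lower and 0 higher at an unadjusted p below 0.05. edgeR and DESeq2 each called 3 lower and 0 higher. Of all tested genes limma called 3.28% lower and 5.46% higher at an adjusted p below 0.05, the background for its 4 calls. Of the 13527 genes edgeR called 1361 and DESeq2 1193, both directions together. No share of all genes was taken at the unadjusted threshold, so the 13 have no background here. The 4 were Cenpf at -1.26 ± 0.25 (limma adjusted p = 0.0105), Cdc20 at -0.88 ± 0.17 (0.00734), Ccnb1 at -0.83 ± 0.22 (0.0398) and Anln at -0.46 ± 0.12 (0.0357). None of these 4 calls was made in all 8 leave-outs. The count was 0 without the second day 7 library (7 lower and 1 higher at an unadjusted p below 0.05), 1 without the first, 2 without either day 0 library and 7 without either day 14 library. Ccnb1 lost its call without either day 0, day 7 or day 21 library, Anln without either day 0 or day 7 library or the second day 21 library, Cenpf without either day 7 library and Cdc20 without the second day 7 library, at adjusted p-values of 0.0615 to 0.291. The median member differed by -0.30, against 0.01 over all tested genes.

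Other genes of the cell cycle were read from lists that hold no member. Of all tested genes 27.9% were lower and 27.5% higher at day 7. A list gene that passed the filter on low values only through day 0 had to differ, and such genes were not counted. Several of the largest falls named below ended under the filter value of 10. Their day 7 means were 4.52 for Kif14 and for Kntc1, 9.46 for E2f8, 2.71 for Esco2 and 9.88 for E2f7. At day 7 the lowest median was that of the other spindle and cytokinesis genes, where 28 of 31 fell, 1 rose and 2 were not called, at a log2 difference of -3.04. The kinesin Kif14 fell by 4.69, the spindle pole protein Numa1 rose by 0.37, and Kif24 and Haus1 were not called (-0.58 and -0.39). Of 35 other centromere and kinetochore genes 27 fell, 1 rose and 7 were not called, with a median of -1.74. There Kntc1, a subunit of the RZZ complex of the checkpoint, fell by 4.89, and Cenpc1 rose by 0.36. The uncalled ones were Cenpo, Hjurp, Mis18a, Dsn1, Mis12, Zwint and Zw10, at -0.66 to 0.13. Of 23 other mitotic kinases and regulators 21 fell, led by E2f8 at -3.97; Lin54, a DNA-binding subunit of the DREAM and MuvB complexes, rose by 0.43, and Ensa was not called (0.12).

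The anaphase promoting complex list and the condensin and cohesin list had medians closer to 0, unlike the DNA replication list. Of 12 anaphase promoting complex subunits 6 fell, 1 rose and 5 were not called, with a median of -0.31, ranging from -0.82 for Anapc5 to 0.41 for Anapc11. Of 15 other condensin and cohesin genes 4 fell, 1 rose and 10 were not called, with a median of -0.11. The share of falls in this list is close to the 27.9% of all tested genes that were lower at day 7. The cohesin acetyltransferase Esco2 fell by 4.32, whereas the cohesin ring subunits Smc1a, Smc3 and Rad21 were not called and lay between -0.06 and 0.04, and the cohesin subunit Stag2 rose by 0.51. Of 34 DNA replication genes 33 fell, with a median of -1.77 and the largest fall in thymidine kinase Tk1, at -3.74, and Gins3 was not called at -0.02.

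Regulators of the G1 phase were mixed: of 25 such genes 14 fell, 5 rose and 6 were not called, with a median of -0.47. The all-gene shares were 27.9% lower and 27.5% higher. The transcriptional repressor E2f7 fell by 3.91. The CDK inhibitor Cdkn1c, also called p57, rose by 4.60 ± 0.13 on the log2 scale (limma adjusted p = 1.26e-10), from a level of 24.0 ± 1.24 to 604 ± 4.74 (SD, n = 2). Other CDK inhibitors went both ways: Cdkn2a, Cdkn1b and Cdkn2b rose by 1.12, 1.04 and 0.79, and Cdkn1a and Cdkn2c fell by 0.63 and 0.47. The pocket protein Rbl2 rose by 1.52. Of the D-type cyclins, which carry growth signals to the cell cycle, Ccnd2 fell by 0.83 (adjusted p = 4.52e-05). Ccnd1 and Ccnd3 stood at 5712 ± 302 and 3606 ± 230 at day 0 and at 5729 ± 273 and 3687 ± 229 at day 7 and were not called, nor were E2f4, E2f5, Rb1 and Cdkn2d. The differences between lists were not tested.

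**Figure D5:**
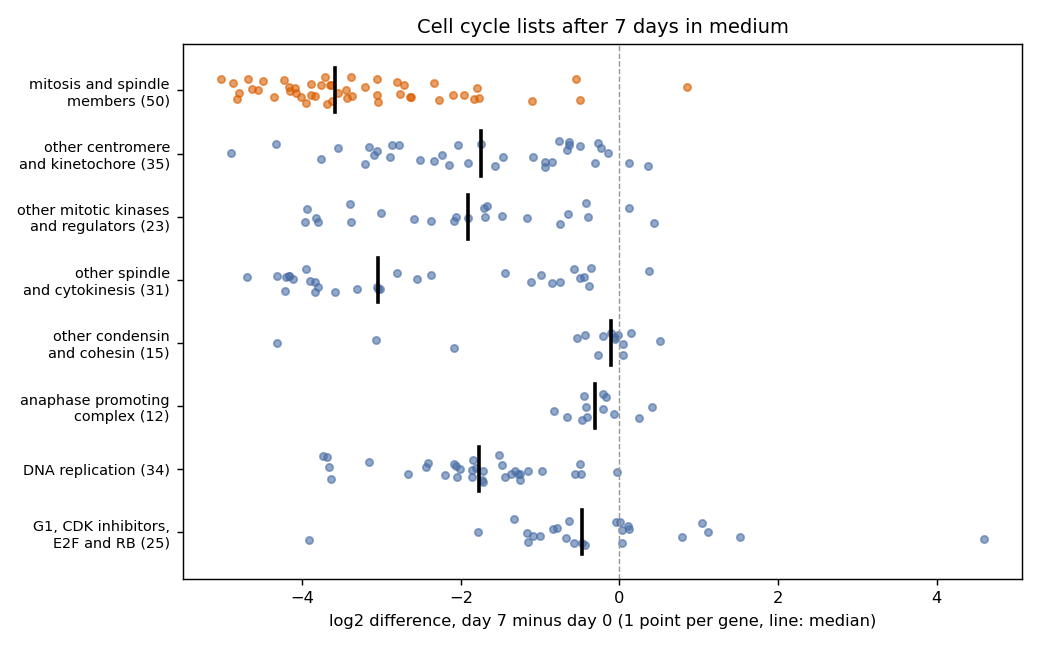
Log2 difference between day 7 and day 0 for every gene of the 50 members and of 7 other cell cycle lists, 1 point per gene, with the number of genes in brackets and a line at each median. The members' median of -3.58 is the lowest of the 8, and the G1, anaphase promoting complex and condensin and cohesin lists have medians of -0.47, -0.31 and -0.11.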

How the data were processed

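RNA of 8 libraries of mouse cardiac fibroblasts was sequenced, 2 for each of days 0, 7, 14 and 21. For each gene the authors deposited a normalized signal, which the values show to be reads divided by 1 size factor per library: 100% of them were whole reads within 0.01 once divided by the library's step. Per the submitters' processing notes, the tools were TopHat2 2.0.11, DESeq and HTSeq 0.6.1, and the genome was mm9. Information on what each tool did, the annotation and the strand setting was not given in the sources used here.

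Values were analysed as log2(value + 1) in genes with at least 10 in at least 2 of 8 libraries, 13527 in all, with limma 3.58.1 (trend, R 4.3.3) in 1 fit of the 4 days with 4 residual and 8.16 prior degrees of freedom. Calls used a Benjamini-Hochberg adjusted p below 0.05. A difference on this scale understates the change of low genes. Alternatives were edgeR 4.0.16 and DESeq2 1.42.0 on the recovered reads, other pseudocounts, filters and scalings, length and GC trends removed, a replicate block and each library left out. Of all 13527 genes edgeR called 7581 at day 7 and 8055 at day 21 against day 0, 7167 between days 14 and 7, 4820 between days 21 and 14, and 1361 between days 21 and 7. Transcript lengths came from GENCODE M21 and were matched for 98.4% of symbols, and promoter windows came from RefSeq on GRCm38.p6. Figures were drawn with matplotlib 3.10.9 under Python 3.11.15.

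All members may be named; of the other cell cycle lists, the largest rise, the largest fall and uncalled genes at day 7 may be. Incenp, Ccnd2, Rbl2 and the CDK inhibitors beyond that rule were named after their values were seen, and Cdc23 for its overlap with Kif20a. Members and lists were chosen with earlier results of these data known, so their direction is not independent evidence.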

Additional observations from a re-analysis of the deposited data

How the results depend on the processing

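All 50 members were called at day 7 against day 0 under every alternative, and at day 21 against day 0 under every one but the removal of a library (49 to 50). No called member reversed direction. Between days 14 and 7, where 18 were called, removing length and GC trends gave 11 and leaving out single libraries 11 to 22. Between days 21 and 14, where 8 were called (5 lower, 3 higher), leaving out libraries gave 2 to 14 and total-count scaling gave 8 lower and 2 higher. DESeq2 gave 5 lower and 1 higher and edgeR 6 lower and 2 higher. Between days 21 and 7, where 4 were called, leaving out libraries gave 0 to 7, dropping the filter 2 and total-count scaling 7. Total-count scaling also moved the median of all tested genes between days 21 and 0 to -0.11. Causes were not tested.

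The replicate numbers showed no sign of pairing: same-numbered libraries of different days had correlations of -0.04 to 0.07 in their deviations. That check cannot show whether same-numbered libraries shared a source. With a replicate block the counts were 50, 18, 10, 3 and 50 for day 7 against 0, 14 against 7, 21 against 14, 21 against 7 and 21 against 0.

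Medium-day levels of many members rest on few reads, so small steps between medium days were not detectable there.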

Other observations

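Genes of the other cell cycle lists also moved between medium days. Of all tested genes 27.0% were lower and 25.0% higher at day 14 against day 7, and 14.3% lower and 20.2% higher at day 21 against day 14. Between days 7 and 14, 12 of the 15 other condensin and cohesin genes fell and 3 were not called, with a median log2 difference of -0.56, and between days 14 and 21, 6 of the 15 rose and 9 were not called, with a median of 0.35. Of the 12 anaphase promoting complex subunits 5 rose and 1 fell to day 14, and 5 fell and 1 rose to day 21. Of the 31 other spindle and cytokinesis genes 12 fell and 2 rose to day 14. Both steps share the day 14 libraries, and the all-gene slopes on transcript length given for them apply here too; their part in these counts was not tested. At day 21 against day 0, 29 of the 31 other spindle and cytokinesis genes and 32 of the 34 DNA replication genes were lower, by limma with Benjamini-Hochberg adjustment. Of all tested genes 29.5% were lower in that comparison.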
